A study of Mus musculus with 6 samples.

Results

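Among the 25166 genes of the deposited table, 45 genes of DNA repair were described in muscle stem cells (MuSCs) that lack *Sirt6* and in control MuSCs. They were taken by symbol from a list drawn up with earlier results of these data known, by a rule that used no measured value, and sorted by pathway into 10 DNA glycosylases, 9 genes for the later steps of base excision repair, 10 genes of double-strand break sensing and homologous recombination, 7 of non-homologous end joining, 2 of mismatch repair and 7 of nucleotide excision repair. All 45 were found. *Tdg*, the gene of thymine DNA glycosylase, was the one that marked the set, and it was the only one of the 45 whose difference between the groups passed the test.

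RNA of 3 Sirt6mKO and 3 Ctrl samples was sequenced, with 1 library per sample, from MuSCs sorted directly out of limb and trunk muscle of C57BL/6 mice. Sirt6mKO mice carry floxed *Sirt6* and a constitutive Cre that the *Pax7* promoter drives (Pax7-ICN) and that removes exons 4 to 6 of *Sirt6* in the muscle lineage. Controls are wild type in the labels, whereas the supplementary legend describes them as Cre-negative animals with floxed *Sirt6*. The labels name no treatment for either group. The legend gives male mice of 12 weeks, while the labels give neither age nor sex. The sort kept cells positive for integrin alpha 7 and CD34 and without the blood, endothelial and mesenchymal surface markers CD45, CD31 and Sca1. The authors' methods also list sorting by the GFP or YFP of reporter mice, and the cross for Sirt6mKO included a YFP reporter. Whether the gate was the same in both groups was not tested. Each library came from 100 to 200 cells and 1 to 5 ng of RNA and was read as single ends of 75 bases. Nothing in the labels says that replicates were separate animals, so p-values measure the spread between these samples.

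The values, called signal here, are reads per gene divided by 1 factor per library and rounded. Between 1267027 and 3209958 reads on genes per library lie behind them. One read was worth a signal of 1.79 in Ctrl replicate 3 and of 0.729 in Ctrl replicate 2, so low values were least precise in Ctrl replicate 3. Intervals and floors derived from reads cover counting error only. In what follows, values of a group are given in the order of replicates 1, 2 and 3. *Sirt6* itself was at 19, 20 and 13 in the Sirt6mKO libraries against 18, 17 and 20 in Ctrl, which does not check the labels because exons outside the deleted part still give reads. *Pax7*, the transcription factor that defines MuSCs, was abundant in all 6 libraries, at 1841, 2307 and 1810 in Sirt6mKO and 4066, 3449 and 3150 in Ctrl. It fell by 0.84 on the log2 scale (SE of the log2 fold change, 0.13, adjusted p = 0.0041 by limma-trend and Benjamini-Hochberg). In bulk samples, fewer cells of a type and less RNA per cell cannot be told apart. Only Sirt6mKO mice carry the Cre that the *Pax7* promoter drives, so its part cannot be told apart from the loss of *Sirt6*. *Chrdl2*, another MuSC marker, fell too, by 1.10 (SE 0.16), while the log2 fold change was -0.03 (SE 0.11) for *Myf5*, 0.04 (SE 0.11) for *Cdh15*, 0.14 (SE 0.12) for *Vcam1* and 0.04 (SE 0.15) for *Spry1*, and *Cd34* rose by 0.60 (SE 0.14). *Itga7*, which encodes the integrin of the sort, and *Sdc4* each had -0.30 (SE 0.10), lower in Sirt6mKO without overlap of the groups. Neither was called (adjusted p = 0.12 and 0.13 by limma-trend), and *Calcr* had -0.26 (SE 0.15).

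DNA repair is divided by the kind of lesion. Base excision repair starts with a glycosylase that cuts a damaged or wrong base from its sugar, after which an endonuclease opens the strand, a polymerase fills the gap and a ligase seals it. Nucleotide excision repair removes bulky lesions, mismatch repair corrects errors of replication, and broken ends are joined either directly or by copying a sister strand. TDG removes thymine and uracil paired with guanine. It also removes some, but not all, of the oxidised forms of methylated cytosine that TET enzymes make. It thus serves both repair and the loss of DNA methylation. SIRT6, a deacetylase of the sirtuin family, is itself known to act at DNA breaks and in base excision repair. Quiescent stem cells such as MuSCs seldom replicate their DNA and are known to rely on end joining for broken ends.

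*Tdg* lies on the plus strand of chr10:82629828-82650799 (GRCm38). The 250 bases before its RefSeq start, chr10:82629588-82629837 on the plus strand of GRCm38.p6, are shown because *Tdg* was the member that changed. Capitals mark a full cyclic AMP response element (TGACGTCA), a CCAAT box read on the other strand and an E-box (CACGTG):
Tdg promoter: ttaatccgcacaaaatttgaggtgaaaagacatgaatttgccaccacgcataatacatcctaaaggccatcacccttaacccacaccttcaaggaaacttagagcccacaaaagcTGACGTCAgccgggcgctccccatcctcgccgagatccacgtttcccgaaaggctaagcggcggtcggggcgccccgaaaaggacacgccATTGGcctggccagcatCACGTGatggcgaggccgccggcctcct
The stretch held 19 CpG dinucleotides, against a median of 6 over the same window of all 32851 RefSeq mouse promoters, of which 80.3% had fewer than *Tdg*. The full element TGACGTCA was present in 1.55% of those promoters and in 2 of the 36 repair genes whose symbol matched, and CACGTG in 6.02% and in 7 of 36. The CCAAT box was common, in 33.8% of all promoters and 19 of 36 repair genes. Neither GGGCGG (a GC box, 32.7% of all promoters) nor CCGGAAG (an ETS site, 6.91%) nor GCATGCG (the NRF1 core, 3.02%) occurred in this window on either strand. Among the repair genes these were found in 23, 5 and 5 of 36. Matches of letters are a description and show no binding.

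*Tdg* was lower in Sirt6mKO MuSCs. The Sirt6mKO libraries were at 31, 30 and 36 and the Ctrl libraries at 71, 112 and 102, a mean of 32.3 ± 3.21 (SD, n = 3) against 95 ± 21.4 (SD, n = 3). The groups did not overlap, and the lowest control library was far above the highest Sirt6mKO library. The reads behind these values were 37, 40 and 38 in Sirt6mKO and 58, 154 and 57 in Ctrl. The log2 fold change was -1.50 on the log2(signal + 1) scale (SE 0.21, 95% interval -1.96 to -1.05), that is 2.84-fold lower, with a Benjamini-Hochberg adjusted p of 0.0017 by limma-trend over the 14227 genes tested. The exact two-sided permutation test gave p = 0.1, the smallest that 3 against 3 libraries allow. The difference passed the threshold in each of 17 refits with another scaling, filter, pseudocount or variance model, with a replicate block, or without any single library, with adjusted p from 8.8e-04 to 0.019. 

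Part of the *Tdg* transcript occurs almost letter for letter in processed pseudogenes, which bears on how its reads could be assigned. The copy with the most signal was *Tdg-ps2* (*Gm9855* in the GENCODE annotation), at chr10:42054113-42055306. It matches the coding sequence of *Tdg* over 1194 nt with 9 mismatches, and 68.1% of the read-length windows of 75 nt along that match are identical in both. The window with the most mismatches, 4, is shown from bases 1042 to 1116 of *Tdg*, counted from 1 at the first base of the start codon where the match begins, and from chr10:42054191-42054265 (minus strand) of the pseudogene, with the mismatches in capitals:
Tdg: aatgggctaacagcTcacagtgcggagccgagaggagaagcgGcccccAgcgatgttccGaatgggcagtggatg
Tdg-ps2: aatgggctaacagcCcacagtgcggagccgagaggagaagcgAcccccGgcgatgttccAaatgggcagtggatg
Further copies were *Gm5597* on chromosome 7 (99.3% identity over 1193 nt) and *Tdg-ps* on chromosome 15 (98.7% identity over 2968 nt). In all, 28.6% of the 75-mers of *Tdg* transcripts occurred in transcripts of other genes in the same sense, and the next highest share among the repair genes was 3.06%, for *Pms2*.

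*Tdg-ps2* ran the other way from *Tdg*. The Sirt6mKO libraries were at 13, 16 and 24 and the Ctrl libraries at 2, 3 and 7, without overlap, with a log2 fold change of 1.98 (SE 0.46, adjusted p = 0.029 by limma-trend and Benjamini-Hochberg). *Gm5597* was at 1, 1 and 3 against 1, 3 and 0, and *Tdg-ps* at 1, 0 and 0 against 1, 0 and 2, both too low to test. Since reads on more than 1 region were left out by the authors, a read that fits *Tdg* and a copy equally well should be absent, and how reads with a single mismatch were placed was not tested. When *Tdg* and its 3 copies were added up, an alternative chosen after the data were seen, the sums were 46, 47 and 63 in Sirt6mKO and 75, 118 and 111 in Ctrl, a mean of 52.0 ± 9.54 (SD, n = 3) against 101.0 ± 23.1 (SD, n = 3). The sums still did not overlap, and the difference of the mean log2 values was smaller, at -0.94 (exact two-sided permutation test, p = 0.1).

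*Tdg* also overlaps *Glt8d2*, a gene of a glycosyltransferase-like protein on the opposite strand, in 367 nt of exon at its 3' end. *Glt8d2* rose, from 10, 12 and 7 in Ctrl to 35, 34 and 58 in Sirt6mKO, with a log2 fold change of 2.01 (SE 0.32, adjusted p = 0.0037 by limma-trend and Benjamini-Hochberg). The library kit keeps strand, but the sources used here do not say if the counting step used it. Without strand, reads in the shared 367 nt cannot be given to one gene or the other. The plot of *Tdg*, its copies and *Glt8d2* shows these opposite directions library by library.

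**Figure D1:**
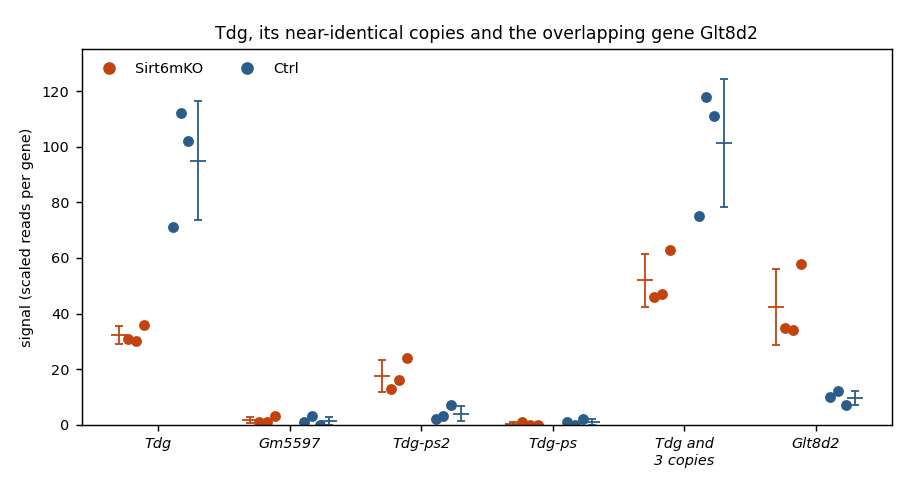
Signal (scaled reads per gene, linear axis from 0) of *Tdg*, its 3 near-identical copies, their sum and the overlapping gene *Glt8d2* in 3 Sirt6mKO and 3 Ctrl libraries, with the mean and SD beside the points. *Tdg* lies at 30 to 36 in Sirt6mKO and 71 to 112 in Ctrl, while *Tdg-ps2* and *Glt8d2* are higher in every Sirt6mKO library than in any control.

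*Tdg* lies 1002030 nt from *Sirt6* on the same chromosome. The stretch was examined after the values had been seen, so its counts are a description. Of 12 genes tested between *Sirt6* and *Tdg*, 3 were higher (*Zfp873*, *BC024063* and *Gm4924*) and 1 was lower (*1190007I07Rik*), which is 33.3% of them. *Zfp873*, a zinc finger gene, was at 25, 20 and 27 in the Sirt6mKO libraries against 9, 4 and 4 in Ctrl (log2 fold change 1.98, SE 0.38, adjusted p = 0.011 by limma-trend and Benjamini-Hochberg). *BC024063* had 42, 32 and 48 against 11, 10 and 11 (log2 fold change 1.82, SE 0.27, adjusted p = 0.0026). In the 1 Mb beyond *Tdg*, *Glt8d2* was the only called gene of 10 tested, and in the 1 Mb on the other side of *Sirt6* 1 of 42 tested genes was called, which is 2.38%. Over the whole table the shares called were 2.64% higher and 1.88% lower. The floxed allele and its surroundings lie on the same chromosome as *Tdg*. If controls are littermates with floxed *Sirt6*, as the supplement has it, both groups carry that stretch, whereas wild-type controls, as the labels have it, would not. Which of these holds for the sequenced samples, and the part of the flanking sequence in these values, was not tested.

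**Figure D2:**
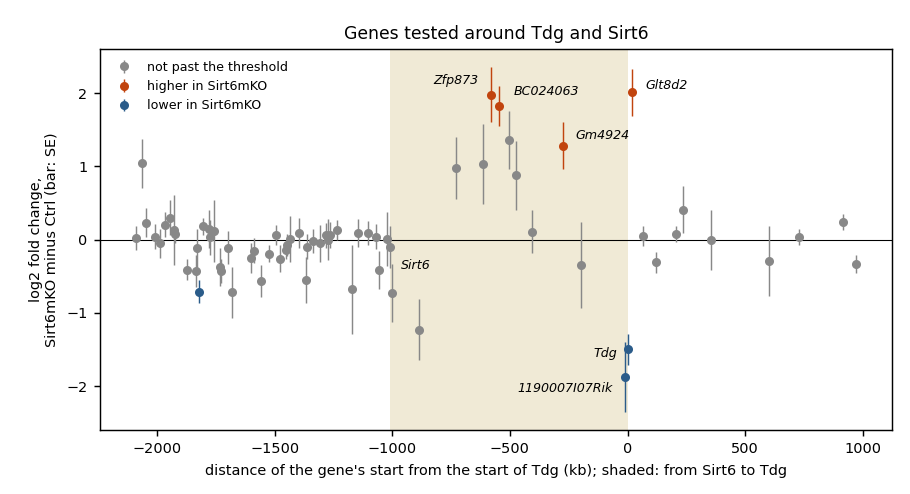
Log2 fold change (Sirt6mKO minus Ctrl, bars are SEs) of the tested genes around *Tdg*, against the distance of each gene's start from the start of *Tdg* in kb, with the stretch from *Sirt6* to *Tdg* shaded. Of the 12 tested genes between them 3 are higher and 1 is lower in Sirt6mKO, and *Glt8d2* is the only called gene of 10 beyond *Tdg*.

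The repair genes as a set were read against the whole table. Of the 45, 44 had a mean signal of at least 5 and were tested. *Neil3*, a glycosylase of replicating cells, was the exception, at 2, 0 and 5 in Sirt6mKO and 9, 4 and 4 in Ctrl. The value of 0 in Sirt6mKO replicate 2 allows up to 3 reads, a signal of 2.24. *Ung*, the main uracil glycosylase, was the lowest tested member, at 4, 4 and 5 against 5, 6 and 9 (log2 fold change -0.50, SE 0.45, adjusted p = 0.63 by limma-trend). At an adjusted p of at most 0.05, 1 of 44 was lower (2.27%) and 0 were higher by limma-trend, beside 1.88% lower and 2.64% higher among all 14227 genes. At an unadjusted p under 0.05 there were 6 of 44 (13.6%), *Tdg*, *Smug1*, *Lig3*, *Brca1* and *Atm* lower and *Brca2* higher, a smaller share than the 18.1% of all genes (8.14% lower and 9.97% higher). With a change of at least 2-fold as well, *Tdg* was again the single call, beside 1.02% lower and 1.57% higher among all genes. Signal did not overlap between the groups for 7 of 44 members, all lower in Sirt6mKO (15.9%), and for 0 in the other direction, beside 10.1% of all genes lower and 11.1% higher.

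Most members differed little. The log2 fold change was below 0 in 31 and above 0 in 13 of the 44, with a median of -0.11 beside 0.002 over all genes tested. The middle part of the members, between the quartiles, ran from -0.29 to 0.04, and that of all genes from -0.21 to 0.23. The 95% interval lay within a 2-fold change either way for 34 of 44 members (77.3%, beside 66.2% of all genes), so for those a change of 2-fold or more lies outside the interval. The 10 others, *Tdg* among them, had intervals that reached past 2-fold in 1 direction at least. Signal added up over all 45 members was 4480, 4356 and 4504 in Sirt6mKO and 4564, 4771 and 4936 in Ctrl, and without *Tdg* 4449, 4326 and 4468 against 4493, 4659 and 4834. These sums did not overlap in either case, although the closest libraries differed by little. They were not computed with another scaling, and upper quartile scaling moved the median log2 fold change of all genes to 0.094.

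**Figure D3:**
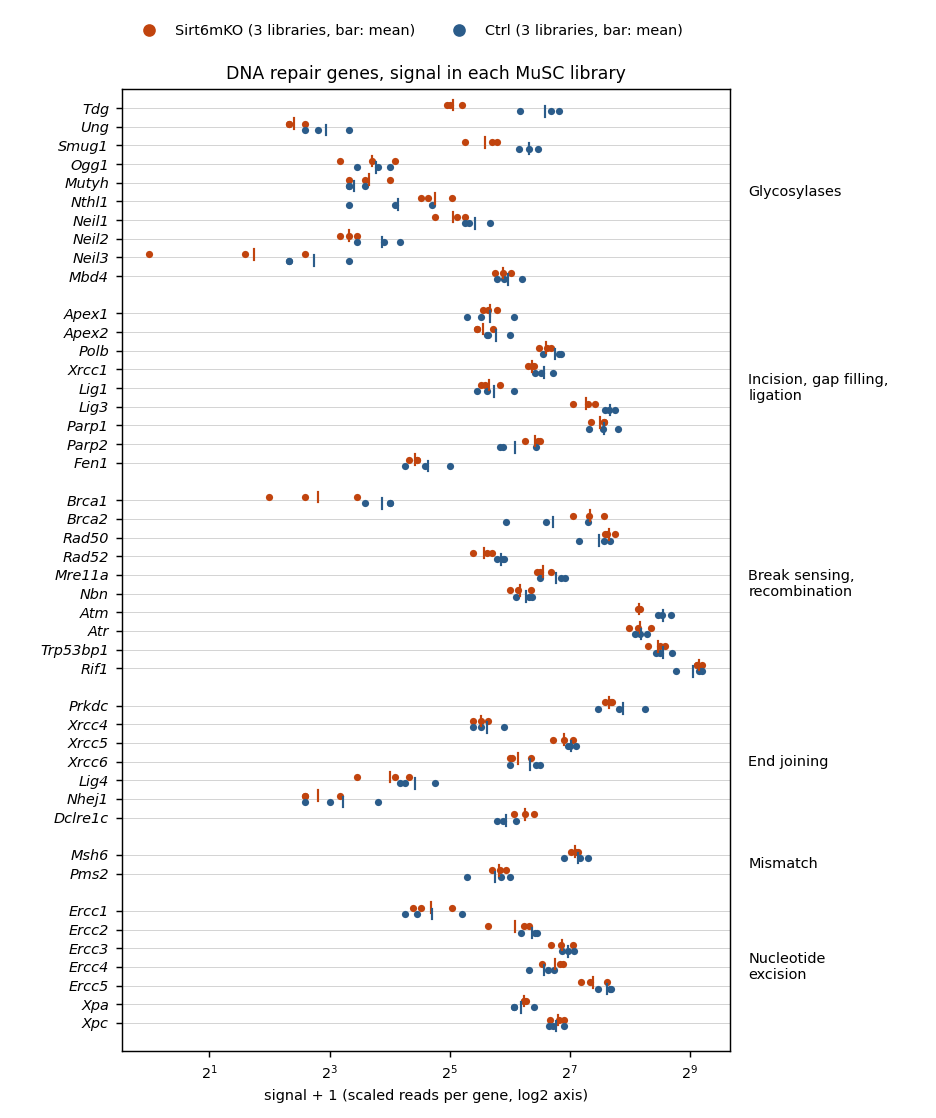
Signal + 1 (scaled reads per gene, log2 axis) of each of the 45 repair genes in 3 Sirt6mKO and 3 Ctrl libraries, grouped by pathway, with a bar at each group's mean. *Tdg*, *Smug1*, *Lig3*, *Xrcc1*, *Brca1*, *Rad52* and *Atm* are the 7 tested genes whose groups do not overlap, each lower in Sirt6mKO.

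Per kilobase of exon, repair genes spanned a wide range of levels in control MuSCs. *Xrcc5*, which encodes the larger Ku subunit that grips broken ends, had the highest signal per kb, at 50.6, with a range of 48.5 to 53.6 over the 3 controls. *Rif1*, which shields broken ends from resection, followed at 50.5 (41.4 to 56.2), and these neighbours did not differ beyond their spread. *Atm*, the kinase that signals double-strand breaks, was at 36.4 (34.0 to 39.6), and *Parp1*, the sensor of single-strand breaks, at 35.6 (29.9 to 41.9), again with overlapping ranges. The lowest were *Brca1* at 1.60, *Ung* at 1.22 and *Neil3* at 1.02 signal per kb. *Tdg* was 22nd of the 45 in controls, at 17.7 signal per kb (13.2 to 20.8), and 6.02 in Sirt6mKO. Exon lengths are those of all annotated isoforms joined, so genes with many isoforms appear lower per kb. *Tdg* may also appear too low, since 28.6% of its 75-mers occur in other genes and reads on several regions were left out. The same may hold for genes that overlap others on the opposite strand, if strand was not used.

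Of the 9 glycosylases tested, 1 was called lower (*Tdg*) and 0 higher, with a median log2 fold change of -0.37. A value below 0 was found for 7 of the 9, and 2 had non-overlapping groups. Their summed signal, *Neil3* included, was 227, 245 and 235 in Sirt6mKO and 319, 341 and 369 in Ctrl. Without *Tdg* the sums were 196, 215 and 199 against 248, 229 and 267, which still did not overlap. That gap rests on *Smug1*, at 37, 51 and 54 against 79, 70 and 88, and the sums overlap once it is left out too.

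*Smug1* (chr15:103153290-103167092), which like UNG removes uracil, also from single strands, came closest to *Tdg*. The Sirt6mKO libraries were at 37, 51 and 54 and the Ctrl libraries at 79, 70 and 88. Every control library was above every Sirt6mKO library, with means of 47.3 ± 9.07 and 79.0 ± 9.0 (SD, n = 3 each). The log2 fold change was -0.74 (SE 0.20, 95% interval -1.16 to -0.31), and the limma-trend adjusted p of 0.053 was just outside the threshold. It was between 0.046 and 0.047 with equal total signal, with robust empirical Bayes and with the replicate block, and up to 0.23 without a library.

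*Nthl1* (chr17:24632680-24638837), which removes oxidised pyrimidines, had the highest log2 fold change of the glycosylases, 0.70 (SE 0.35, 95% interval -0.07 to 1.47, adjusted p = 0.33 by limma-trend). Its signal was 24, 32 and 22 against 25, 9 and 16, so that Ctrl replicate 1 lay among the Sirt6mKO libraries. *Mbd4*, which shares the G/T mismatch with TDG as a substrate, was at 64, 58 and 53 in Sirt6mKO and 59, 54 and 73 in Ctrl. Its log2 fold change was -0.08 (95% interval -0.48 to 0.32), and a 2-fold difference lay outside the interval. *Ogg1* and *Mutyh*, which deal with oxidised guanine, had log2 fold changes of -0.10 and 0.23, and *Neil1* and *Neil2*, which act on oxidised bases, of -0.37 and -0.53. The intervals of these 4 all held 0, and their groups overlapped.

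The later steps of base excision repair held 0 called genes of 9 by limma-trend (1 at an unadjusted p under 0.05), with 9 of 9 intervals within 2-fold and a median log2 fold change of -0.15. *Lig3* (chr11:82781108-82804274), whose ligase seals the nick together with XRCC1, had the lowest value. The Sirt6mKO libraries were at 131, 157 and 170 and the Ctrl libraries at 200, 214 and 192, without overlap, and its log2 fold change was -0.41 (SE 0.13, 95% interval -0.70 to -0.12, adjusted p = 0.12 by limma-trend). *Xrcc1* (chr7:24546289-24573440), the scaffold that holds LIG3, was at 84, 78 and 82 against 85, 105 and 91. These groups did not overlap either, but by a single unit of signal, with a log2 fold change of -0.20 (SE 0.15, adjusted p = 0.55 by limma-trend). Of the exon sequence of *Lig3*, 23.2% of the 75-mers lie on the opposite strand of *Rffl*. If strand was not used, reads there would fall on several genes and be left out by the authors' counting rule.

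*Parp2* (chr14:50807841-50821301), a second poly(ADP-ribose) polymerase of strand breaks, had the highest log2 fold change of these genes, 0.36 (SE 0.19, 95% interval -0.06 to 0.78, adjusted p = 0.37 by limma-trend). Its signal was 90, 75 and 88 against 58, 56 and 86, and Ctrl replicate 3 overlapped with Sirt6mKO. *Parp1* was at 189, 162 and 188 against 186, 222 and 158, with a log2 fold change of -0.06 (95% interval -0.38 to 0.26). *Polb*, the gap-filling polymerase, had a log2 fold change of -0.15, *Apex2*, a further endonuclease at abasic sites, and *Fen1*, which cuts displaced flaps, of -0.20 each, *Lig1*, the replicative ligase, of -0.07, and *Apex1*, the main endonuclease at abasic sites, of 0.03. Values of *Fen1* and *Apex1* are uncertain, because 73.7 and 47.7% of their 75-mers lie on the opposite strand of other genes.

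For double-strand breaks, 0 of 10 genes of sensing and recombination were called by limma-trend (3 at an unadjusted p under 0.05, beside 18.1% of all genes), with values on both sides of 0 and a median of -0.10 (log2 fold change). *Atm* (chr9:53439149-53536740) had 3 Sirt6mKO libraries close together, at 283, 287 and 281, against 368, 351 and 409 in Ctrl. The groups did not overlap, and the log2 fold change was -0.40 (SE 0.11, 95% interval -0.64 to -0.16, adjusted p = 0.061 by limma-trend). Over the alternatives the adjusted p of *Atm* ran from 0.054 to 0.20, and it passed the threshold in none of them. *Atr*, the kinase of replication stress, was at 253, 280 and 326 against 269, 287 and 310, with a log2 fold change of -0.02 (95% interval -0.29 to 0.26).

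*Brca1* and *Brca2*, which act in the same recombination pathway, had the lowest and the highest values of this set. *Brca1* (chr11:101488764-101551955) was at 5, 3 and 10 in Sirt6mKO and 15, 15 and 11 in Ctrl, with 4 to 21 reads behind each value. The groups did not overlap, and the log2 fold change was -1.18 with a wide interval (-2.13 to -0.23, SE 0.44, adjusted p = 0.17 by limma-trend). *Brca2* (chr5:150522630-150570329) was at 159, 131 and 189 against 96, 60 and 156. Ctrl replicate 3 lay among the Sirt6mKO libraries, and the log2 fold change was 0.70 (SE 0.27, 95% interval 0.12 to 1.29, adjusted p = 0.19 by limma-trend). It was 0.36 with an adjusted p of 0.45 without Ctrl replicate 2 and 1.05 with an adjusted p of 0.025 without Ctrl replicate 3, and with the replicate block the adjusted p was 0.035.

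*Rad52* (chr6:119902698-119922828), a mediator of single-strand annealing, was at 48, 51 and 41 against 58, 54 and 59, again without overlap, with a log2 fold change of -0.29 (SE 0.18, adjusted p = 0.46 by limma-trend). The MRN complex, which binds and trims broken ends, showed no common direction, with log2 fold changes of 0.19 for *Rad50*, -0.21 for *Mre11a* and -0.11 for *Nbn*. *Rif1* and *Trp53bp1*, which steer breaks to end joining, had the highest mean signal of the members over all 6 libraries (548 and 362, although *Atm* was level with *Trp53bp1* in Ctrl, at means of 376 and 373), with 554 to 586 and 313 to 383 in Sirt6mKO and 435 to 590 and 343 to 413 in Ctrl. Their log2 fold changes were 0.11 and -0.08, and both intervals lay within 2-fold.

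Non-homologous end joining showed 0 of 7 called by limma-trend, 0 at an unadjusted p under 0.05 and 0 of 7 non-overlapping, with a median log2 fold change of -0.18. *Dclre1c* (chr2:3424131-3464130), the gene of the nuclease Artemis, had the highest value, at 84, 75 and 66 against 54, 58 and 68. Its log2 fold change was 0.32 (SE 0.18, 95% interval -0.06 to 0.70, adjusted p = 0.38 by limma-trend). *Lig4* (chr8:9969049-9977686), the ligase of this pathway, had the lowest, at 19, 16 and 10 against 17, 26 and 18, with a log2 fold change of -0.43 (SE 0.33, 95% interval -1.15 to 0.28, adjusted p = 0.54 by limma-trend). The Ku genes *Xrcc5* and *Xrcc6* had log2 fold changes of -0.14 and -0.18, *Prkdc*, the kinase that Ku recruits, of -0.19, and *Xrcc4*, the partner of LIG4, of -0.09. *Nhej1* was low, at 5, 5 and 8 against 7, 5 and 13, and its interval of -1.34 to 0.64 held a 2-fold decrease.

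Mismatch repair was represented by 2 genes. *Msh6* (chr17:87975062-87990892), a subunit of the mismatch sensor, was at 137, 128 and 140 in Sirt6mKO and 118, 156 and 143 in Ctrl, with a log2 fold change of -0.03 (SE 0.14, 95% interval -0.34 to 0.28, adjusted p = 0.94 by limma-trend). *Pms2* (chr5:143909964-143933968), a subunit of the downstream endonuclease, was at 56, 51 and 60 against 38, 57 and 63, with a log2 fold change of 0.11 (SE 0.22, 95% interval -0.36 to 0.57, adjusted p = 0.86 by limma-trend). Both intervals lay within 2-fold, and the sign of both values turned in some alternatives.

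Nucleotide excision repair genes stayed near their control level, with 0 of 7 called by limma-trend, 0 at an unadjusted p under 0.05, 7 of 7 intervals within 2-fold, and 0.01 as the median log2 fold change. *Ercc4* (chr16:13109684-13150617), the XPF subunit of the nuclease that cuts before the lesion, had the highest value, at 92, 113 and 117 against 106, 98 and 79 (log2 fold change 0.19, SE 0.17, adjusted p = 0.61 by limma-trend). *Ercc2* (chr7:19382010-19395694), a helicase of TFIIH with 23.3% of its 75-mers on the opposite strand of other genes, had the lowest, at 79, 74 and 49 against 85, 87 and 72 (log2 fold change -0.29, SE 0.20, adjusted p = 0.49 by limma-trend). *Ercc1*, the partner of XPF, had a log2 fold change of 0.01, *Ercc3*, the other TFIIH helicase, of -0.12, and *Ercc5*, the nuclease that cuts after the lesion, of -0.23. *Xpa*, which verifies the lesion, and *Xpc*, which finds it, had 0.06 and 0.04. *Xpa* was at 74, 74 and 76 in Sirt6mKO, inside the control range of 66 to 84.

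**Figure D4:**
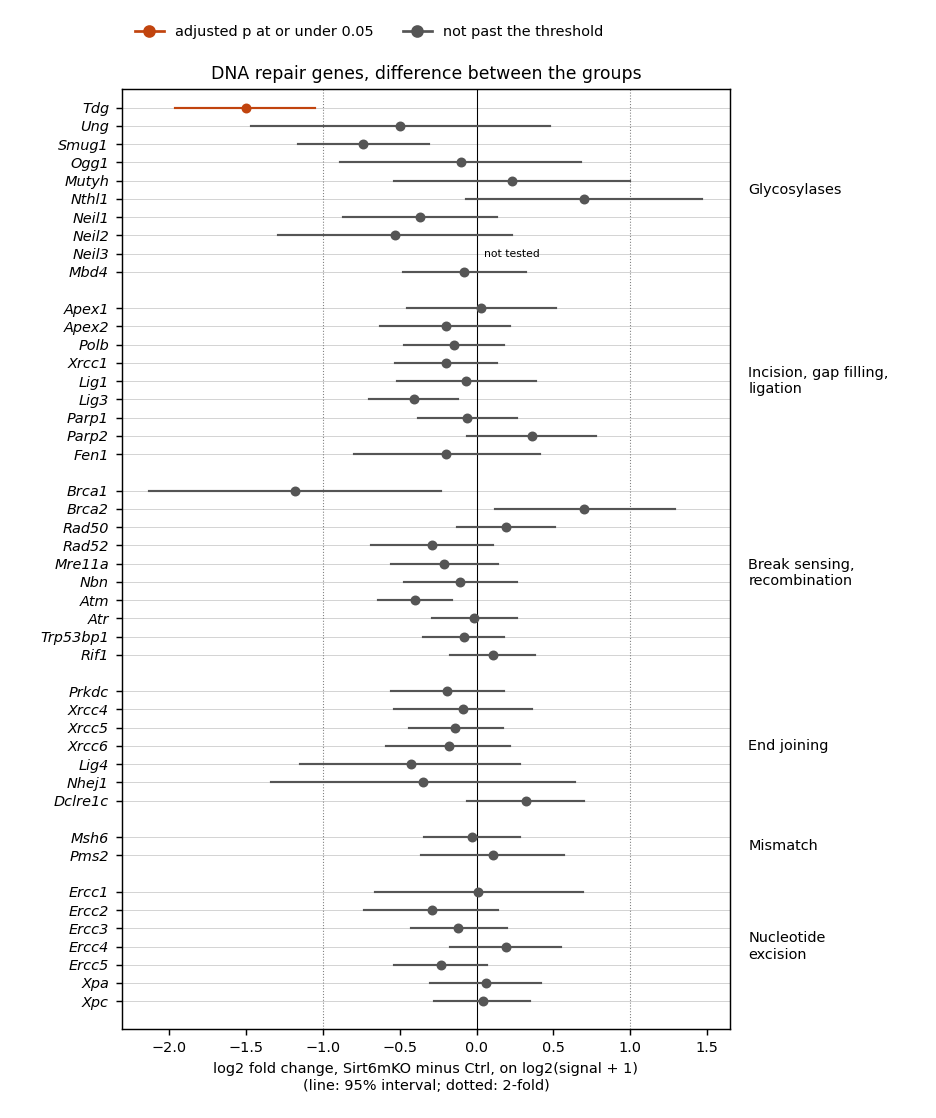
Log2 fold change (Sirt6mKO minus Ctrl, on log2(signal + 1)) of the 44 tested repair genes with 95% intervals, by pathway, with dotted lines at 2-fold. *Tdg* at -1.50 is the only gene past the threshold, and all 7 nucleotide excision repair genes lie between -0.29 and 0.19.

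Genes that work beside these were read from 10 further lists with 126 tested genes, chosen with earlier results of these data known. In them 2 genes were called higher and 1 lower, with a median log2 fold change of -0.02. *Gadd45g*, a stress gene whose family has been tied to TDG in DNA demethylation, rose from 34, 23 and 16 in Ctrl to 72, 79 and 45 in Sirt6mKO. Its groups did not overlap, and its log2 fold change was 1.41 (SE 0.30, adjusted p = 0.018 by limma-trend and Benjamini-Hochberg). Its relatives *Gadd45a* and *Gadd45b* had log2 fold changes of -0.25 and -0.11 (adjusted p = 0.58 and 0.86 by limma-trend).

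The TET enzymes, which make the oxidised bases that TDG removes, were not called. *Tet1* was at 151, 197 and 164 against 237, 226 and 206, without overlap, with a log2 fold change of -0.39 (SE 0.13, adjusted p = 0.14 by limma-trend). *Tet2* was the most abundant of them, at 861 to 969 in Sirt6mKO and 907 to 1136 in Ctrl, with a log2 fold change of -0.11, and *Tet3* had -0.21. *Dnmt1*, the maintenance methyltransferase, was at 209, 225 and 224 against 172, 203 and 163 (log2 fold change 0.29, adjusted p = 0.24 by limma-trend). Of the 12 genes of DNA methylation and demethylation, *Gadd45g* was the 1 called.

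*Fancd2*, whose protein is ubiquitinated at crosslinks, was at 92, 107 and 109 in Sirt6mKO and 155, 141 and 151 in Ctrl, and fell by 0.54 on the log2 scale (SE 0.14, adjusted p = 0.045 by limma-trend and Benjamini-Hochberg), the only one called of 11 crosslink repair genes tested. *Ccng1*, a p53 target, rose from 118, 124 and 118 to 215, 160 and 173, a log2 fold change of 0.59 (SE 0.14, adjusted p = 0.034). It was the only called gene of 16 p53 targets tested, 11 of which had a value above 0, with a median of 0.10. At an unadjusted p under 0.05 there were 5 of the 16, all higher in Sirt6mKO (*Ccng1*, *Btg2*, *Rrm2b*, *Phlda3* and *Plk2*), beside 9.97% of all genes in that direction. *Cdkn1a*, the cell cycle inhibitor downstream of p53, was at 22, 25 and 43 against 26, 14 and 25 (log2 fold change 0.44, adjusted p = 0.53). In limma-trend, *Ccng1* and *Fancd2* were no longer called whichever 1 of the 6 libraries was left out. *Gadd45g* was not called without Sirt6mKO replicate 1 or 2 or Ctrl replicate 2.

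The lists of single-strand break factors (9 tested), nucleotide excision repair (17), mismatch repair (4), double-strand breaks (28), bypass polymerases (7), direct reversal (2) and replication and mitosis (20) held 0 called genes each at an adjusted p of at most 0.05, with 0, 0, 0, 4, 3, 0 and 3 at an unadjusted p under 0.05. Over all 10 lists this was 19 of 126 genes (15.1%), beside 18.1% of all genes. Their median log2 fold changes ran from -0.23 in replication and mitosis to 0.07 in double-strand break factors. *Ddb1*, the damage-binding adaptor, had the highest mean signal of all these genes over the 6 libraries (1271, with *Smc6* at 1212 and *Rev3l* at 1210, both above *Ddb1* in the Sirt6mKO mean), at 1147 to 1310 in Sirt6mKO and 1178 to 1490 in Ctrl (log2 fold change -0.10). *Mki67*, a marker of cycling cells, was at 30, 76 and 182 against 289, 119 and 186, and its groups overlapped (log2 fold change -1.30, adjusted p = 0.17 by limma-trend). Without Sirt6mKO replicate 3, *Mki67* and *Top2a*, a topoisomerase of dividing cells, were both called lower, with log2 fold changes of -1.93 (adjusted p = 0.020) and -1.57 (adjusted p = 0.033), where *Top2a* had -0.96 (adjusted p = 0.29) with all 6 libraries.

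**Figure D5:**
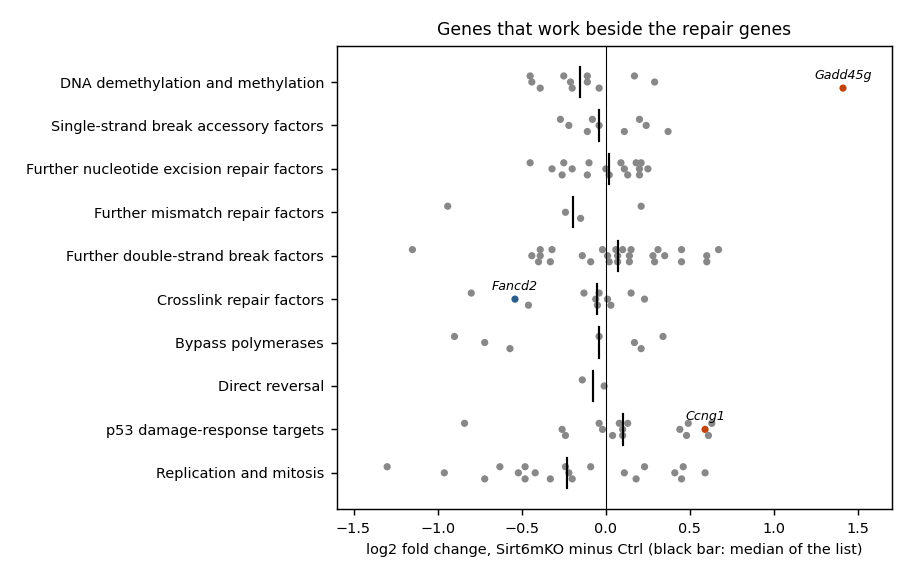
Log2 fold change (Sirt6mKO minus Ctrl) of the 126 tested genes in 10 lists that work beside the repair genes, with a black bar at each list's median. *Gadd45g* at 1.41 and *Ccng1* at 0.59 are called higher and *Fancd2* at -0.54 lower, and the medians lie between -0.23 and 0.10.

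Markers of other cells moved with the groups, and their part in the results above was not tested. Of 8 myofiber markers, 3 were called higher in Sirt6mKO (*Acta1*, *Mylpf* and *Ttn*), and the 8 summed to 966 to 2337 in Sirt6mKO and 616 to 791 in Ctrl. All 8 had a log2 fold change above 0 (median 1.42), 7 of them at an unadjusted p under 0.05 by limma-trend. Of 7 fibroblast markers tested, 3 were called higher (*Col1a1*, *Col1a2* and *Pdgfra*), with sums of 9465 to 11560 and 6555 to 10220 that overlapped. *Col3a1* gave most of these sums, at 6685 to 8461 and 5795 to 8595 (log2 fold change 0.06). All 7 had a log2 fold change above 0 (median 1.39), 6 of them at an unadjusted p under 0.05 by limma-trend. Over all genes that share was 9.97% in this direction. The 4 tenocyte markers summed to 59, 1035 and 391 in Sirt6mKO and 37 to 56 in Ctrl, with 0 called by limma-trend and 3 at an unadjusted p under 0.05. Erythroid genes stood at 470 in Ctrl replicate 2 and at 11 to 55 in the other libraries. Of 10 MuSC markers, *Pax7* and *Chrdl2* were called lower and *Cd34* higher, and the 10 summed to 11311 to 11773 against 12737 to 14037. Without *Pax7* and *Chrdl2* the sums of the 8 others overlapped, at 8972 to 9175 against 8820 to 9346. *Pax7* and *Chrdl2* were dropped because they were called lower, and *Cd34*, called higher, was kept. That choice favours an overlap, so these sums show nothing about MuSC content. The 4 endothelial markers in the table summed to 24 to 38 in Sirt6mKO and 11 to 38 in Ctrl. Only 1 of them, *Pecam1*, had a mean signal of at least 5 and was tested. It was at 22, 27 and 24 against 11, 4 and 29 (log2 fold change 1.05, adjusted p = 0.30 by limma-trend). Its unadjusted p was not under 0.05. *Tie1* was at 0 in all libraries but Ctrl replicate 2. The 4 immune markers in the table summed to 42 to 82 and 43 to 76, with *Cd68* at 34 to 70 and *Csf1r* at 0 to 3. Of these, 2 were tested by limma-trend (*Cd68* and *Cd79a*), with 0 called and 0 at an unadjusted p under 0.05. *Tdg* was at 31, 30 and 36 in the Sirt6mKO libraries. There the myofiber sums were 2048, 2337 and 966, the fibroblast sums 9465, 10073 and 11560, and the tenocyte sums 59, 1035 and 391. A link of *Tdg* to any of them was not tested.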

How the data were processed

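The authors' methods name trimming with Reaper, alignment to mm10 with STAR, counting by featureCounts without reads on several genes or regions, and DESeq2. The authors' notes in the labels name Trimmomatic 0.39, STAR 2.7.10a, featureCounts 2.0.2 and DESeq2 1.30.1, and the library kits named also differ. The deposited values are whole numbers of no named unit, treated here as signal: reads divided by a library factor and rounded by the authors, as gaps in low values show (of the numbers 1 to 60, 11 are absent in Ctrl replicate 1 and 27 in Ctrl replicate 3). Recovered factors were 0.558 to 1.372. No count test was used.

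All 6 libraries were grouped by label. Genes with a mean signal from 5 upwards (14227 of 25166) were tested by limma-trend on log2(signal + 1) without covariates (limma 3.58.1, R 4.3.3), with Benjamini-Hochberg adjustment over all of them and a threshold of 0.05, after a check on simulated data. Single values were compared with exact two-sided permutation tests (scipy 1.17.1, Python 3.11.15). Positions came from GENCODE for GRCm38, which held 99.7% of gene identifiers, copies from blastn 2.17.0, and promoters from RefSeq. The members and lists were chosen with earlier results of these data known. By rule, all members were accounted for, and libraries were given for *Tdg*, called members, the lowest and highest fold change of each pathway, members without overlap, *Sirt6* and *Pax7*, and from the further lists for called genes and the most abundant one. Other genes given by library were chosen after their values were seen. Alternatives were 4 scalings, 2 filters, 2 pseudocounts, robust empirical Bayes, a replicate block, voom on recovered reads, an adjusted p of 0.01 and each library left out.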

Additional observations from a re-analysis of the deposited data

How the results depend on the processing

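*Tdg* was lower and called in all 17 planned refits. Its log2 fold change ran from -1.70 to -1.37 without single libraries, and it was -0.94 when summed with its copies, for which no adjusted p exists. The number of repair genes called, 1 in the report, was 2 with equal total signal (*Smug1*, log2 fold change -0.76), 2 with robust empirical Bayes (*Smug1*), 3 with the replicate block (*Smug1* and *Brca2*) and 1 to 2 without single libraries (*Brca2* without Ctrl replicate 3, which also gave the 2 calls with a 2-fold change, range 1 to 2). For the 15 other named members, 243 of 252 values kept direction and side of the threshold and 5 passed it. The 4 that reversed were *Msh6*, 0.06 with upper quartile scaling, 0.00 without Sirt6mKO replicate 2 and 0.05 without Ctrl replicate 2, and *Pms2*, -0.11 without Ctrl replicate 1 (ranges without single libraries -0.15 to 0.05 and -0.11 to 0.25). Upper quartile scaling moved the median of all genes to 0.094.

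Over the whole table, 376 genes were higher and 267 lower. The replicate block gave 481 and 333. A mean of at least 50, which leaves fewer genes, gave 220 and 164, and an adjusted p of 0.01 gave 130 and 103. Without single libraries the counts were 127 to 443 higher and 106 to 240 lower, the fewest without Sirt6mKO replicate 1 (128 and 106) or 2 (127 and 119). With a 2-fold change (223 and 145), a mean of 50 gave 76 and 52, an adjusted p of 0.01 gave 93 and 77, and single libraries left out gave 88 to 294 and 81 to 151. The further lists had 3 calls, 6 with upper quartile scaling, 5 with a pseudocount of 5, 1 with no filter, and 0 to 3 without single libraries. The causes were not tested.

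Whether the replicate numbers pair the samples was not settled, since 3 libraries per group are too few for that. Same-numbered libraries of the groups correlated at 0.023, 0.066 and 0.188 in their deviations from the group means. Other pairs ran from -0.129 to 0.073. The value for replicate 3 was the highest, but not every library correlated best with its own number. Depth limits the low members, since 1 read in Ctrl replicate 3 stands for a signal of 1.79, and with 3 libraries per group single-gene exact tests cannot go below 0.1.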

Other observations

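Genes beside the called ones in the further lists stood near the threshold, and were chosen after their values were seen. *Smc5*, a subunit of the SMC5/6 complex that holds sister strands during repair, was at 344, 382 and 388 in Sirt6mKO and 280, 184 and 283 in Ctrl, without overlap, with a log2 fold change of 0.60 (SE 0.16, adjusted p = 0.053 by limma-trend and Benjamini-Hochberg). *Rrm2b*, the p53-controlled subunit that supplies nucleotides for repair, was at 157, 158 and 178 against 111, 117 and 122 (log2 fold change 0.49, SE 0.13, adjusted p = 0.054). *Btg2*, an antiproliferative p53 target, was at 409, 520 and 561 against 280, 421 and 272 (log2 fold change 0.63, SE 0.17, adjusted p = 0.059), and it was called in 3 of 17 alternatives. *Polh*, the polymerase that bypasses ultraviolet lesions, was at 34, 48 and 55 against 75, 64 and 86 (log2 fold change -0.72, SE 0.21, adjusted p = 0.084). None of these passed the threshold in the comparison reported.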
